A study of Mus musculus with 6 samples.

Results

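Killer cell lectin-like receptors are the C-type lectin receptors with which natural killer (NK) cells, and some T cells, read the surface of other cells. They were taken here as every gene whose symbol starts with Klra, Klrb, Klrc, Klrd, Klre, Klrg, Klrh, Klri or Klrk, a rule that does not use the measured values. It found 36 genes among the 24346 listed per library, 20 of them Klra genes, which encode the Ly49 receptors, and 16 others. The libraries were RNA sequencing of mouse splenic CD11c+ dendritic cells enriched on an autoMACS instrument, 3 from cells treated with IL-33 and 3 from cells treated with PBS, the vehicle. IL-33 is a cytokine of the IL-1 family. The labels give no strain, age, dose or time. Nor do they say whether the animal or a culture was treated, or whether each library is a separate animal. The spread that p-values are set against may thus be technical.

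Inhibitory receptors of the family carry a tyrosine motif in their cytoplasmic tail that recruits phosphatases, and most bind class I MHC molecules of healthy cells. Activating receptors lack that motif and signal through adaptor proteins such as DAP12 (Tyrobp), DAP10 (Hcst) and the Fc receptor gamma chain (Fcer1g). The genes lie together in the natural killer gene complex. NK cells of the mouse spleen carry some CD11c on their surface, and single family members are also known from plasmacytoid dendritic cells and myeloid cells.

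The values are FPKM, fragments counted per kilobase of a transcript and per mapped fragment of the library, so that levels of different genes can be set side by side. Absolute depth is unknown. Relative depth, taken from the step size of low values with PBS replicate 1 set to 1, was 0.946 to 1.22, with both groups intermixed. Summed FPKM was higher in every IL-33 library, at 778391 to 841884 with IL-33 and 614522 to 641412 with PBS. Changes are therefore also given with libraries rescaled to equal totals where that alters a call. That rescaling shifts the median change of all tested genes from 0.01 to -0.29 on the log2 scale. Dendritic cell markers were abundant in every library, with Itgax, which encodes CD11c, at a mean of 283 FPKM with IL-33 and 241 FPKM with PBS. The log2 change of Itgax was 0.23, and -0.11 with equal totals. Of 14 conventional dendritic cell markers 6 were higher with IL-33 and 6 lower in the test described below, beside 28% and 25.5% of all tested genes. With equal totals 4 were higher and 8 lower, beside 11.1% and 50.7% of all. NK cell markers outside the family were present in every library too. Their summed level over 15 listed genes was 665 to 936 FPKM with IL-33 and 1249 to 2039 FPKM with PBS. Without Ccl5, the most abundant of them, the sum was 198 to 337 FPKM with IL-33 and 487 to 736 FPKM with PBS. PBS replicate 3 held the highest sums of NK cell and of T cell markers, the second at 473 FPKM against 251 and 331 FPKM in the other PBS libraries and 126 to 132 FPKM with IL-33. Since these are bulk samples, fewer cells of a type and less RNA per cell cannot be told apart.

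Most receptors of the family fell with IL-33. Of the 36 genes, 28 reached 1 FPKM in at least 3 of the 6 libraries and were tested, and 23 of these fell, 1 rose and 4 did not pass an adjusted p of 0.05 (limma, adjusted over all 11518 tested genes). Over all tested genes 25.5% were lower and 28% were higher, 53.6% in either direction. The median change of the 28 receptors was -1.16 on the log2(FPKM + 1) scale, beside 0.01 over all tested genes. Klra6 and Klra10 were under 1 FPKM in all 3 IL-33 libraries and passed the filter only through the PBS libraries, so that they had to be lower. Of the other 26, 21 fell, 1 rose and 4 did not pass. Klrc3 and Klra23 were under 1 FPKM in 2 IL-33 libraries each. The 3 IL-33 libraries lay entirely below the 3 PBS libraries for 22 of the 28 receptors, beside 30.9% of all tested genes. By role, 8 of 9 tested activating receptors fell and 1 rose, and 9 of 13 inhibitory ones fell and none rose, or 7 of 11 without Klra6 and Klra10. Whether the roles differ was not tested. With a required change of at least 2-fold no receptor passed in either direction. Only 0.0434% of all tested genes were then lower and 0.729% higher, so this does not show that the changes were under 2-fold.

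**Figure D1:**
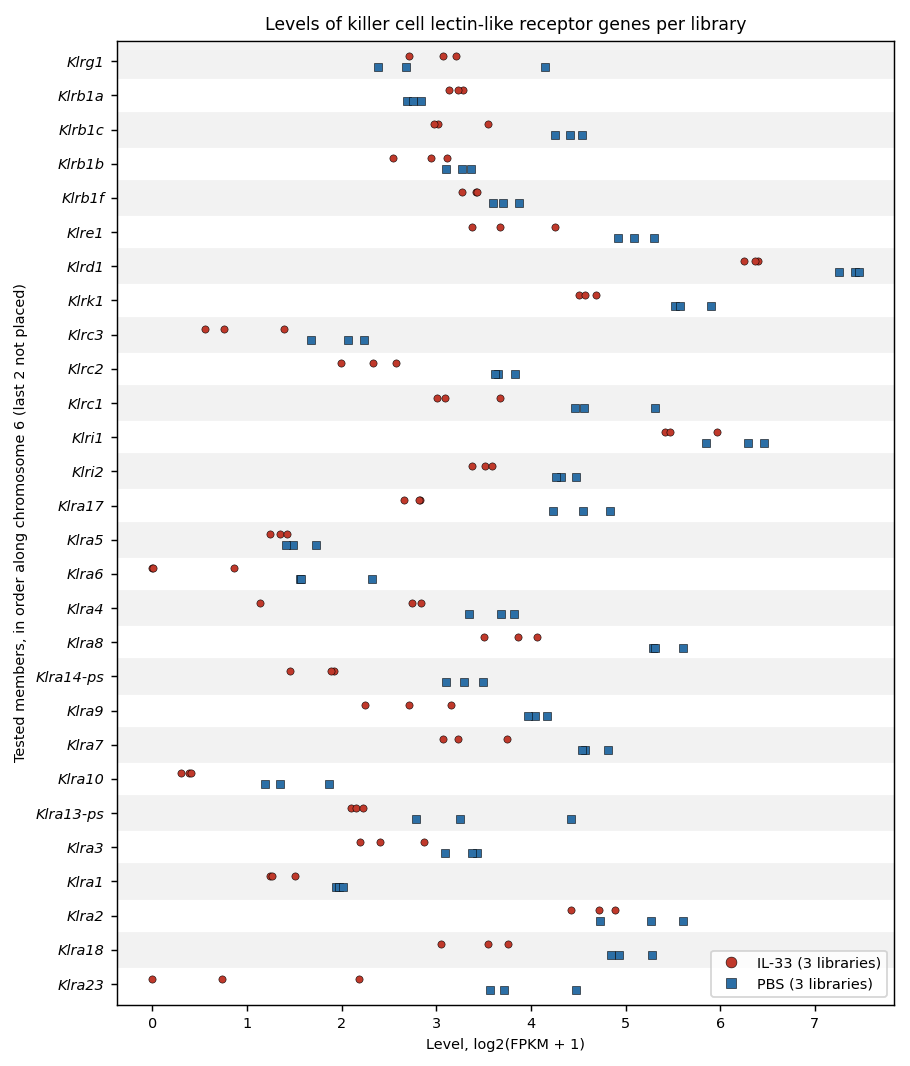
Level of each of the 28 tested receptor genes in log2(FPKM + 1), with 1 point per library (circles for 3 IL-33 libraries, squares for 3 PBS libraries) and genes in their order along chromosome 6. For 22 genes all circles lie left of all squares, while for Klrb1a they lie to the right.

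The 29 receptors that the GENCODE M21 annotation of mm10 places are all on chromosome 6. Apart from Klrg1 and Klrg2, which lie elsewhere on that chromosome, they span 2.64 Mb from Klrb1a to Klra2 (chr6:128609227-131247362). The Klra genes from Klra17 to Klra1 fill 0.556 Mb of it. The other 7 names, Klra12, Klra15, Klra18, Klra19, Klra21, Klra22 and Klra23, were not matched to that annotation. Several of these names belong to Ly49 receptors described in other mouse strains, so their reads may come from other Klra genes.

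Among the CD94 and NKG2 receptors all 4 genes fell. Klrd1 encodes CD94, the chain that pairs with NKG2 receptors to bind the class I molecule Qa-1. It was the most abundant receptor gene, at 75.0, 83.6 and 81.6 FPKM with IL-33 and 151, 171 and 176 FPKM with PBS. It was thus 2.07-fold lower in mean level (log2 change -1.04, SE 0.08, limma adjusted p = 0.000235). The inhibitory partner gene Klrc1 (NKG2A) stood at 7.05, 11.8 and 7.55 FPKM with IL-33 and 22.6, 21.05 and 38.6 FPKM with PBS, with PBS replicate 3 the highest. Its log2 change was -1.52 (SE 0.26, limma adjusted p = 0.00283). The activating partner genes Klrc2 (NKG2C) and Klrc3 (NKG2E) fell by 1.40 (SE 0.15) and 1.09 (SE 0.24) on the log2 scale. Klrc2 averaged 3.98 ± 0.98 FPKM with IL-33 and 12.03 ± 1.05 FPKM with PBS (SD, n = 3 each), and no IL-33 library of either gene reached a PBS library. Transcripts of Klrc1, Klrc2 and Klrc3 share sequence: 38.6% of the 50-base stretches of Klrc1 transcripts also occur in another receptor gene, against none for Klrd1. The read length is not given in the sources used here, so this is a guide to how reads could be shared, and values of the Klrc genes are uncertain as to the single gene.

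Klrk1 encodes NKG2D, an activating receptor for stress-induced ligands. It stood at 21.8, 24.7 and 22.8 FPKM with IL-33 and 44.8, 46.6 and 58.6 FPKM with PBS. The groups were far apart, at a 2.16-fold lower mean with IL-33 (log2 change -1.07, SE 0.11, limma adjusted p = 0.00055). Klre1, whose product pairs with the KLRI chains, was at 11.7, 18.1 and 9.40 FPKM with IL-33 and 33.2, 38.5 and 29.3 FPKM with PBS (log2 change -1.34, SE 0.21, limma adjusted p = 0.00234). The activating chain gene Klri2 fell by 0.86 (SE 0.09), and lay within 9.38 and 11.0 FPKM with IL-33 and within 18.2 and 21.3 FPKM with PBS. The inhibitory chain gene Klri1 was the second most abundant of the family by mean level in both groups. It stood at 41.6, 43.2 and 61.4 FPKM with IL-33 and 56.6, 77.4 and 86.9 FPKM with PBS. The groups overlapped, and its fall was narrow (log2 change -0.59, SE 0.19, limma adjusted p = 0.037). The call was lost without IL-33 replicate 1 or 2 or PBS replicate 2 or 3 (changes of -0.54 to -0.46). It was also lost without the expression filter.

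The NKR-P1 genes, some of whose products bind Clec2 proteins rather than MHC, did not move together. Of 4 tested, 2 fell, 1 rose and 1 did not pass, where 25.5% of all tested genes fell and 28% rose. Klrb1c, which encodes the NK1.1 antigen of NK cells, fell to 7.08, 10.6 and 6.87 FPKM with IL-33, against 20.3, 22.2 and 18.1 FPKM with PBS (log2 change -1.22, SE 0.16, limma adjusted p = 0.00117). Klrb1a, an activating receptor gene of the same group, was at 8.69, 8.34 and 7.76 FPKM with IL-33 and 5.44, 6.13 and 5.76 FPKM with PBS. Every IL-33 library was above every PBS library, as for 32.7% of all tested genes, by 1.43-fold in mean level (log2 change 0.45, SE 0.08, limma adjusted p = 0.00336). When totals were made equal, Klrb1a changed by 0.15 and did not pass (limma adjusted p = 0.139). Klrb1f, whose product binds Clec2i, fell by 0.35 (SE 0.09, limma adjusted p = 0.0166), and that call was lost without IL-33 replicate 1 or PBS replicate 2. It was also lost with cyclic loess scaling. Klrb1b encodes an inhibitory receptor for Clec2d and stood at 6.69, 7.68 and 4.82 FPKM with IL-33 and 8.64, 9.30 and 7.58 FPKM with PBS. The groups overlapped in 1 library each, and its change of -0.38 (SE 0.15, 95% interval -0.74 to -0.02) did not pass. It passed with equal totals (-0.68), with the replicate block (limma adjusted p = 0.0303) and without IL-33 replicate 2 (-0.50).

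The promoters of Klrb1a and Klrb1c are shown because these NKR-P1 genes moved in opposite directions (Klrb1a not with equal totals) while their promoters are alike. They were chosen after the values were seen. Each run reaches from 250 bases before to 50 bases after the start of the gene, 5′ to 3′, with the motif TGTGGT, the core recognised by RUNX factors, in capitals on either strand.
Klrb1a, RefSeq GRCm38.p6, chr6:128622885-128623184, minus strand: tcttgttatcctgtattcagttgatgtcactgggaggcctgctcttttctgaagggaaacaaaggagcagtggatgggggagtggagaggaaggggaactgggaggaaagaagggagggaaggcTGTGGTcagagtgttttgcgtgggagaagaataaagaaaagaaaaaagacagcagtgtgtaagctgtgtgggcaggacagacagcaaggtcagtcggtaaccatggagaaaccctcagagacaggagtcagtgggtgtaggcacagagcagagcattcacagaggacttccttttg
Klrb1c, RefSeq GRCm38.p6, chr6:128788592-128788891, minus strand: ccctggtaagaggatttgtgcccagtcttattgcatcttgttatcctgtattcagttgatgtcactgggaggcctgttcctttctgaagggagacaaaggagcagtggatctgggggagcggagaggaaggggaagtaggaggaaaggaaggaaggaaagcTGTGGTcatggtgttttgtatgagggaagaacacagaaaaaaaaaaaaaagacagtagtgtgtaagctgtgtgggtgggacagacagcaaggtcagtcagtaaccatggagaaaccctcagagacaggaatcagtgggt
The 2 promoters were 69.4% identical over a global alignment, where the 253 pairs among the 23 receptor promoters available from RefSeq had a median of 49.7%. TGTGGT occurred once in each, in 8 of the 23 receptor promoters and in 16.9% of the 27025 promoters of the same length.

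Among the Ly49 receptors, 13 Klra names are placed in the annotation, and all 13 were tested. Of these 11 fell, among them Klra6 and Klra10, none rose, and Klra2 and Klra5 did not pass. Klra8 encodes Ly49H, an activating receptor, which recognises the m157 protein of mouse cytomegalovirus. It stood at 13.5, 15.8 and 10.4 FPKM with IL-33 and 38.1, 47.6 and 38.6 FPKM with PBS, 3.13-fold lower in mean level (log2 change -1.59, SE 0.15, limma adjusted p = 0.000457). Klra4 encodes Ly49D, another activating receptor, and was at 1.199, 5.70 and 6.16 FPKM with IL-33 and 11.9, 9.16 and 13.2 FPKM with PBS. IL-33 replicate 1 was far below the others, and the change of -1.38 (SE 0.43, limma adjusted p = 0.0286) was -0.83 without it. The call of Klra4 was lost without PBS replicate 1 or 3, with a robust variance prior and without the expression filter.

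The inhibitory Ly49 receptors of NK cells fell by varied amounts, apart from Klra5. Klra7 (Ly49G) stood at 8.39, 12.4 and 7.43 FPKM with IL-33 and 22.7, 27.2 and 22.3 FPKM with PBS, with a log2 change of -1.29 (SE 0.17, limma adjusted p = 0.00127). Klra9 (Ly49I) averaged 5.74 ± 2.11 FPKM with IL-33 and 15.7 ± 1.21 FPKM with PBS (SD, n = 3 each), a change of -1.35 (SE 0.21). For both genes the highest IL-33 library was IL-33 replicate 2, and it was still below every PBS library. Klra3 (Ly49C), a receptor for the class I molecule H2-K, fell by 0.81 (SE 0.18, limma adjusted p = 0.00778), to 3.57, 6.30 and 4.32 FPKM with IL-33 against 7.55, 9.74 and 9.36 FPKM with PBS. Klra1 (Ly49A) was low in all libraries, at 1.37 to 1.85 FPKM with IL-33 and 2.82 to 3.03 FPKM with PBS, and fell by 0.63 (SE 0.11). Klra5 (Ly49E) stood at 1.55, 1.36 and 1.68 FPKM with IL-33 and 1.81, 2.32 and 1.66 FPKM with PBS. Its groups overlapped and its change of -0.21 (95% interval -0.49 to 0.07) did not pass, except with equal totals (-0.42) and with library weights (-0.31). Klra10 (Ly49J) and Klra6 (Ly49F) fell too, having passed the filter only through the PBS libraries. Klra10 averaged 0.291 ± 0.050 FPKM with IL-33 and 1.82 ± 0.72 FPKM with PBS (SD, n = 3 each), and Klra6 fell by 1.53 (SE 0.30). Klra6 was listed at 0.00052, 0.818 and 0.00338 FPKM with IL-33, so that its level there was close to 0 in all but IL-33 replicate 2.

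The 2 Ly49 genes known from myeloid cells differed in their changes. Klra17 encodes Ly49Q, an inhibitory receptor of plasmacytoid dendritic cells and other myeloid cells. It stood at 6.10, 5.29 and 6.02 FPKM with IL-33 and 22.4, 27.5 and 17.8 FPKM with PBS. Its groups were far apart, at a 3.89-fold lower mean with IL-33 (log2 change -1.77, SE 0.15, limma adjusted p = 0.000292). Of 9 plasmacytoid dendritic cell markers 6 fell and none rose, beside 25.5% and 28% of all tested genes. Siglech was at 12.4 ± 0.84 FPKM with IL-33 and 51.1 ± 12.7 FPKM with PBS (SD, n = 3 each), a change of -1.93 (SE 0.18). The summed level of those 9 markers was 371 to 477 FPKM with IL-33 and 405 to 622 FPKM with PBS, and their part in the change of Klra17 was not tested. Klra2 encodes Ly49B, an inhibitory receptor of myeloid cells, and stood at 25.3, 28.6 and 20.4 FPKM with IL-33 and 25.6, 37.6 and 47.7 FPKM with PBS. The groups overlapped, and the change of -0.53 (SE 0.22, 95% interval -1.04 to -0.02, limma adjusted p = 0.0766) did not pass. It passed with equal totals (-0.86), quantile normalization (-0.64), cyclic loess (-0.63) and library weights (-0.51), and without PBS replicate 1 (-0.76). Of 12 monocyte and macrophage markers 5 rose and 1 fell, beside 28% and 25.5% of all tested genes. But none of the 12 rose with any of the 3 other scalings, without a filter or without IL-33 replicate 1. Without IL-33 replicate 3, PBS replicate 1 or PBS replicate 2, 1 or 2 rose. The summed level of these markers was 3415 to 4345 FPKM with IL-33 and 2220 to 3645 FPKM with PBS. Their part in the value of Klra2 was not tested.

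Promoters of Klra8, Klra17 and Klra2 are shown as related sequences in front of an NK cell receptor gene and the 2 genes known from myeloid cells. The pairs were again chosen with the values known. Capitals mark GAGGAA, a core recognised by ETS factors such as PU.1, on either strand.
Klra8, RefSeq GRCm38.p6, chr6:130129849-130130148, minus strand: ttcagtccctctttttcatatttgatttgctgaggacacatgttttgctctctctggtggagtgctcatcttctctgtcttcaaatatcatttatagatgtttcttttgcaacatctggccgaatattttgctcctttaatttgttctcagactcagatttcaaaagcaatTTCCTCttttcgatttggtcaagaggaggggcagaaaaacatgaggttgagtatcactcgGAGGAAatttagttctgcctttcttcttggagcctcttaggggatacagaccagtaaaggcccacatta
Klra17, RefSeq GRCm38.p6, chr6:129876623-129876922, minus strand: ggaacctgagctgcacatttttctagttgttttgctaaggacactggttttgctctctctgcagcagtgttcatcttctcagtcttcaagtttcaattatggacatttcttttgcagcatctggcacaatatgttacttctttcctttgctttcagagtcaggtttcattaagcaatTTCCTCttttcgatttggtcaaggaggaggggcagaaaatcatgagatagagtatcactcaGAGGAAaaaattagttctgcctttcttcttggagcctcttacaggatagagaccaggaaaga
Klra2, RefSeq GRCm38.p6, chr6:131247313-131247612, minus strand: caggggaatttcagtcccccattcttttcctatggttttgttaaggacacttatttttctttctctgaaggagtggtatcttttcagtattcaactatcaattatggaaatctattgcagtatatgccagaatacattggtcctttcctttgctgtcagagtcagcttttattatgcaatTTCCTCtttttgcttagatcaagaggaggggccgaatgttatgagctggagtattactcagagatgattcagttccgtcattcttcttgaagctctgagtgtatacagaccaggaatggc
Klra17 was 79.4% identical to Klra8 and 75.1% to Klra2, and Klra8 was 70.9% identical to Klra2. GAGGAA occurred 2 times each in the promoters of Klra8 and Klra17 and 1 time in that of Klra2. It was in 13 of the 23 receptor promoters and in 28.3% of all promoters of that length. CAGGAA, another ETS core, was in 7 receptor promoters and 30.4% of all, and the T-box core TCACAC in 3 and 14.4%. The letters AGATAA, read by GATA factors, were in 3 receptor promoters and 11.4% of all, and CTTTGA, read by TCF factors, in 6 and 16.2%. The AP-1 motif TGANTCA was in 4 and 7.93%, and the STAT motif TTCNNNGAA in 4 and 8.47%. No receptor promoter held the Nfil3 motif TTANGTAA (2.34% of all) or the IRF motif, GAAA repeated after any 2 bases (3.49% of all). Both strands were searched for each motif, and a match describes the letters only.

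**Figure D2:**
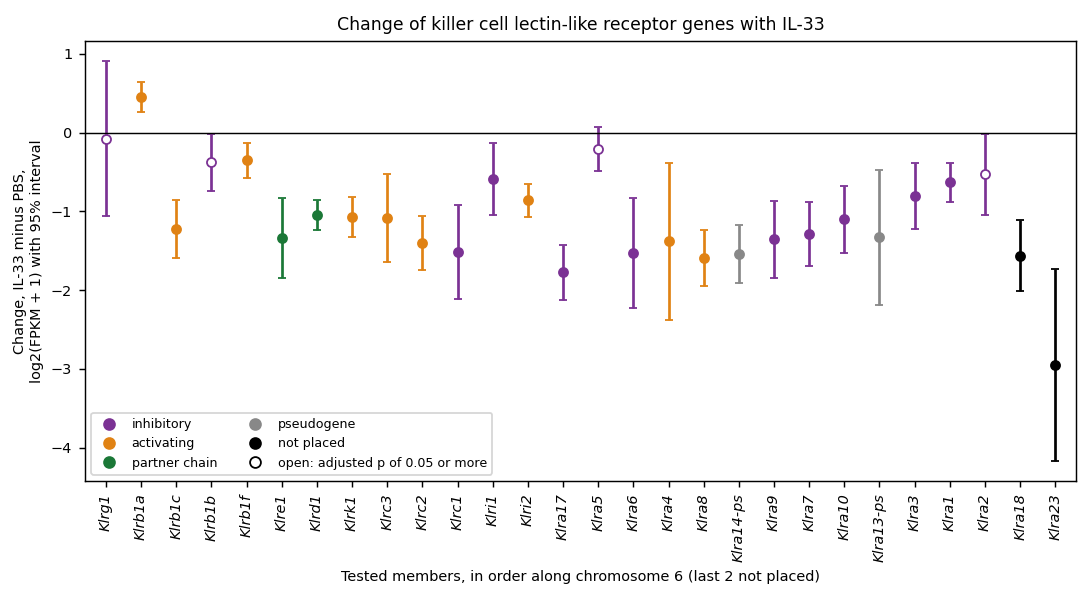
Difference in log2(FPKM + 1) between IL-33 and PBS libraries for each of the 28 tested receptor genes, with its 95% interval from limma (n = 3 libraries per group), in order along chromosome 6 and coloured by role. Filled points passed an adjusted p of 0.05, and Klrb1a is the only filled point above 0, and did not pass with equal totals.

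Klra genes share much sequence, and the value of a single one depends on how the authors' software divided shared reads. Of the 50-base stretches of a gene's transcripts, 39.8% were shared with another receptor gene for Klra10, 33.1% for Klra8, 30.1% for Klra9 and 20.7% for Klra3. None were shared for Klra17 or Klra2. For Klra7 the share was 12.3% and for Klra4 4.35%. The 7 Klra names not placed in the annotation were left out of these shares, so sharing with them is unknown. The pseudogenes Klra13-ps and Klra14-ps fell too, by 1.33 (SE 0.37) and 1.54 (SE 0.16), and shared 13.7% and 24.9%. Klra13-ps stood at 3.28, 3.44 and 3.68 FPKM with IL-33 and 5.88, 20.4 and 8.53 FPKM with PBS. Its change was -0.86 without PBS replicate 2, and its call was lost without IL-33 replicate 1.

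Of the 7 names not placed, 2 were tested. Klra18 stood at 10.7, 12.6 and 7.27 FPKM with IL-33 and 29.5, 37.7 and 27.8 FPKM with PBS (log2 change -1.57, SE 0.19, limma adjusted p = 0.000984). Its level was a near constant share of that of Klra8 in the same library, 0.787, 0.797 and 0.700 with IL-33 and 0.773, 0.793 and 0.719 with PBS. Klra23 was at 0.668 and 3.54 FPKM and listed at 0 in IL-33 replicates 1, 2 and 3, in that order, and at 21.3, 10.9 and 12.2 FPKM with PBS. Its change of -2.95 (SE 0.52, limma adjusted p = 0.0033) was the largest fall among the 28 tested receptors. A sum over all 20 Klra names depends less on how reads were divided among them. It was 82.0, 109 and 78.6 FPKM with IL-33 and 217, 266 and 232 FPKM with PBS, 2.66-fold lower in mean with IL-33. Over the 13 placed names alone the mean was 2.46-fold lower. The 16 other receptor genes summed to 210, 244 and 233 FPKM with IL-33 and 394, 448 and 483 FPKM with PBS, 1.93-fold lower.

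Klrg1 encodes an inhibitory receptor for cadherins, which NK cells, effector T cells and group 2 innate lymphoid cells carry. It stood at 7.42, 8.23 and 5.55 FPKM with IL-33 and 5.42, 4.22 and 16.8 FPKM with PBS. PBS replicate 3 was far above the other 5 libraries, and the groups overlapped. The change of -0.08 (SE 0.42, 95% interval -1.06 to 0.91, limma adjusted p = 0.893) did not pass, and it was 0.46 without PBS replicate 3 (limma adjusted p = 0.059). Quantile normalization and cyclic loess gave 0.0077 and 0.051. Of 5 tested markers of group 2 innate lymphoid cells 4 rose and 1 fell, beside 28% and 25.5% of all tested genes. The 4 that rose had all passed the filter only through the IL-33 libraries. The summed level of the 10 listed markers was 20.2 to 194 FPKM with IL-33 and 4.74 to 6.04 FPKM with PBS. Most of it in IL-33 replicate 1 came from Arg1 (183 FPKM). Il5 was at most 0.051 FPKM in any library, and the part of these markers in the value of Klrg1 was not tested.

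The remaining receptor genes were too low to be tested. Klrg2 was at 0.582, 0.553 and 0.243 FPKM with IL-33 and 0.0985, 0.0302 and 0.0811 FPKM with PBS, all libraries apart. Tested without a filter, it was higher with IL-33 (log2 change 0.44, SE 0.10, limma adjusted p = 0.0162). Klra22 was at 0.177, 0 and 0.294 FPKM with IL-33 and 0.549, 0.472 and 0.543 FPKM with PBS, and was lower with IL-33 without a filter (-0.40, SE 0.09, limma adjusted p = 0.0202). Klra19, Klra21 and Klrb1 stayed at or below 1.37 FPKM, and Klrb1-ps1 was listed at 0 except for 0.200 FPKM in PBS replicate 1. Klra12 and Klra15 were listed at 0 in all 6 libraries.

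Whether receptors fell by unequal amounts was read from their level relative to Klrd1 in the same library, for 7 genes, and from Klrd1 relative to the summed NK cell markers. With 3 libraries a group, the smallest two-sided p of the exact permutation test is 0.1, so none of these 8 ratios could pass. Klra17 over Klrd1 was 0.0813, 0.0633 and 0.0738 with IL-33 and 0.148, 0.161 and 0.101 with PBS (exact p = 0.1, adjusted over the 8 ratios 0.32). Klra8 over Klrd1 was 0.181, 0.189 and 0.127 with IL-33 and 0.252, 0.278 and 0.220 with PBS (exact p = 0.1, adjusted 0.32). For these 2 genes the groups did not overlap, the IL-33 libraries being lower. Klrk1 over Klrd1 was 0.289 ± 0.008 with IL-33 and 0.301 ± 0.031 with PBS (SD, n = 3 each, exact permutation p = 0.7). The groups also overlapped for Klrc1, Klra3, Klrb1c and Klrg1 over Klrd1. Klrd1 over the NK cell markers was 0.113, 0.0893 and 0.0932 with IL-33 and 0.121, 0.133 and 0.0863 with PBS (exact p = 0.5), overlapping too. That log2 difference was -0.19 with all 15 markers and 0.21 when Ccl5, the most abundant of them, was left out, a choice made after the data were seen.

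**Figure D3:**
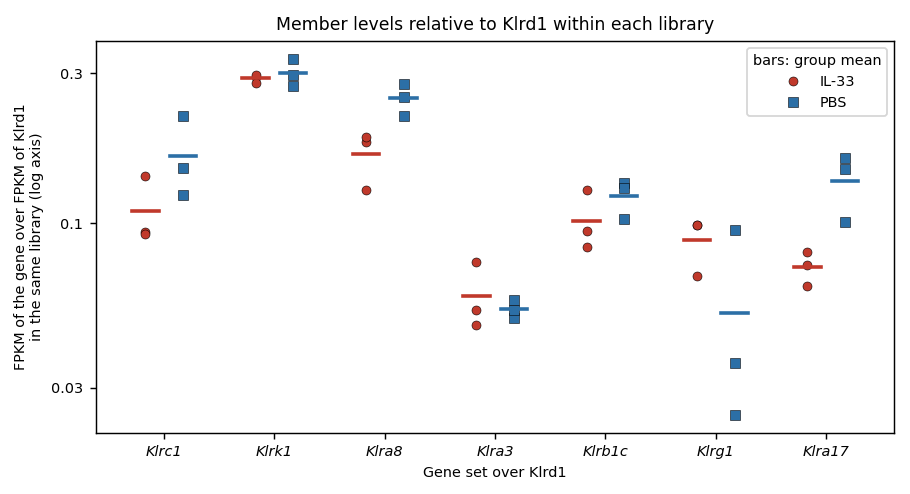
Level of 7 receptor genes divided by that of Klrd1 in the same library, on a log axis, with 3 IL-33 libraries (circles) and 3 PBS libraries (squares) per gene and bars at the group means. The IL-33 and PBS libraries are apart for Klra8 and Klra17 and overlap for the other 5 genes.

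Genes around the receptors were read from lists that share genes, so that their counts are not separate results. Ncr1, Prf1, Gzma and Eomes, for instance, are NK cell markers and each also stand in a list that follows. Tcf7 and Cd247 are T cell markers that stand in other lists as well. Of 15 tested NK cell markers outside the family 11 fell and none rose, beside 25.5% and 28% of all tested genes. The median log2 change of the 15 was -1.38. Of these 15, as of the NK cell receptors and of the cytotoxic effectors that follow, 1 gene passed the filter only through the PBS libraries and fell. The NK cell receptor gene Ncr1 averaged 11.1 ± 4.24 FPKM with IL-33 and 31.0 ± 6.29 FPKM with PBS (SD, n = 3 each), and fell by 1.43 (SE 0.25). Of 19 other receptors of NK cells 14 fell and 1 rose (median -1.31). Those that fell included the chemokine receptor gene Cx3cr1 (-2.22, SE 0.14), Crtam (-1.31, SE 0.12) and Cd7 (-0.72, SE 0.07). The 1 that rose was Fcgr3 (1.31, SE 0.19, limma adjusted p = 0.00162). Of 15 tested cytotoxic effector genes 11 fell and none rose (median -0.89). Without IL-33 replicate 1 only 6 of them fell, beside 19.2% of all tested genes. The perforin gene Prf1 was at 3.34, 6.95 and 4.25 FPKM with IL-33 and 14.0, 13.1 and 17.5 FPKM with PBS, and the granzyme gene Gzma fell by 1.19 (SE 0.27). Gzmm and the death ligand gene Tnfsf10 fell by 1.16 (SE 0.20) and 0.70 (SE 0.10). T cell markers, which share some receptors with NK cells, fell in 13 of 14 cases and rose in none. Without the 3 that passed the filter only through the PBS libraries, 10 of 11 fell. With equal totals 14 of the 15 NK cell markers and 16 of the 19 other receptors fell, where 50.7% of all tested genes fell. All 15 cytotoxic effectors and 13 of the 14 T cell markers fell there too.

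Transcription factors of the NK lineage fell in 9 of 14 cases, or in 7 of 12 without the 2 that passed the filter only through the PBS libraries. They rose in 2 cases, or in 1 without IL-33 replicate 1 or 3 and with each of the 3 other scalings. Over all tested genes 25.5% fell and 28% rose. With equal totals 11 of the 14 factors fell, where 50.7% of all tested genes fell. Eomes, a T-box factor of NK cells, stood at 2.40, 3.64 and 2.59 FPKM with IL-33 and 9.87, 8.29 and 10.5 FPKM with PBS (log2 change -1.45, SE 0.14, limma adjusted p = 0.000474). Tcf7 fell by 1.39 (SE 0.10). Nfil3, a factor needed for NK cell development and also active in other leukocytes, rose to 84.6, 93.0 and 107 FPKM with IL-33, against 17.3, 25.5 and 23.5 FPKM with PBS (log2 change 2.06, SE 0.15, limma adjusted p = 0.000201).

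Of 21 tested adaptors and signalling genes of these receptors 6 rose and 9 fell, where 28% of all tested genes rose and 25.5% fell. With equal totals 1 rose and 15 fell, where 11.1% of all tested genes rose and 50.7% fell. With quantile normalization 2 rose and 13 fell, beside 22.1% and 25% of all, and with cyclic loess 2 rose and 13 fell, beside 23.7% and 23% of all. Tyrobp, the DAP12 adaptor of Ly49D and Ly49H among others, was at 2763, 2431 and 2370 FPKM with IL-33 and 1511, 1862 and 1910 FPKM with PBS. Its log2 change was 0.52 (SE 0.12, limma adjusted p = 0.00787), and 0.18, 0.04 and -0.03 with equal totals, quantile normalization and cyclic loess, none of which passed. Its level in each library far exceeded that of Klrd1, the most abundant receptor gene, and many myeloid cells express it too. Hcst, the DAP10 adaptor of NKG2D, stood at 53.5, 40.7 and 41.3 FPKM with IL-33 and 51.3, 51.4 and 72.6 FPKM with PBS. Its groups overlapped and its change of -0.36 (SE 0.16) did not pass, except under the 3 other scalings (-0.69 to -0.55). The T and NK cell signalling genes Cd247 (-1.57, SE 0.22), Plcg1 (-0.92, SE 0.11) and Zap70 (-1.52, SE 0.22) fell.

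Of 22 listed ligands of the receptors 8 were tested, and 1 fell, none rose and 7 did not pass. Among all tested genes 25.5% fell and 28% rose. With equal totals 5 of the 8 fell, where 50.7% of all tested genes fell. With cyclic loess 5 fell and with quantile normalization 3, beside 23% and 25% of all, and 2 rose without PBS replicate 3, beside 27% of all. Clec2i, the ligand gene of Klrb1f, fell to 23.7, 23.7 and 24.6 FPKM with IL-33, against 36.4, 35.9 and 30.3 FPKM with PBS (log2 change -0.49, SE 0.08, limma adjusted p = 0.00298). Clec2d, the ligand gene of Klrb1b, averaged 123 ± 15.8 FPKM with IL-33 and 117 ± 9.73 FPKM with PBS (SD, n = 3 each), with a change of 0.07 (SE 0.11) that did not pass. With equal totals and with cyclic loess it was -0.27 and passed. H2-T23, which encodes the Qa-1 ligand of CD94 and NKG2, stood at 335 ± 21.4 FPKM with IL-33 and 289 ± 21.5 FPKM with PBS (log2 change 0.21, SE 0.08, limma adjusted p = 0.0611). That change did not pass, and its sign turned with equal totals (-0.13), quantile normalization (-0.21) and cyclic loess (-0.21), which did not pass either. Of the NKG2D ligands only Ulbp1 was tested, at 3.97 FPKM with IL-33 and 4.50 FPKM with PBS in mean. Its change of -0.16 did not pass, but with equal totals it was -0.43 and passed (limma adjusted p = 0.0298).

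**Figure D4:**
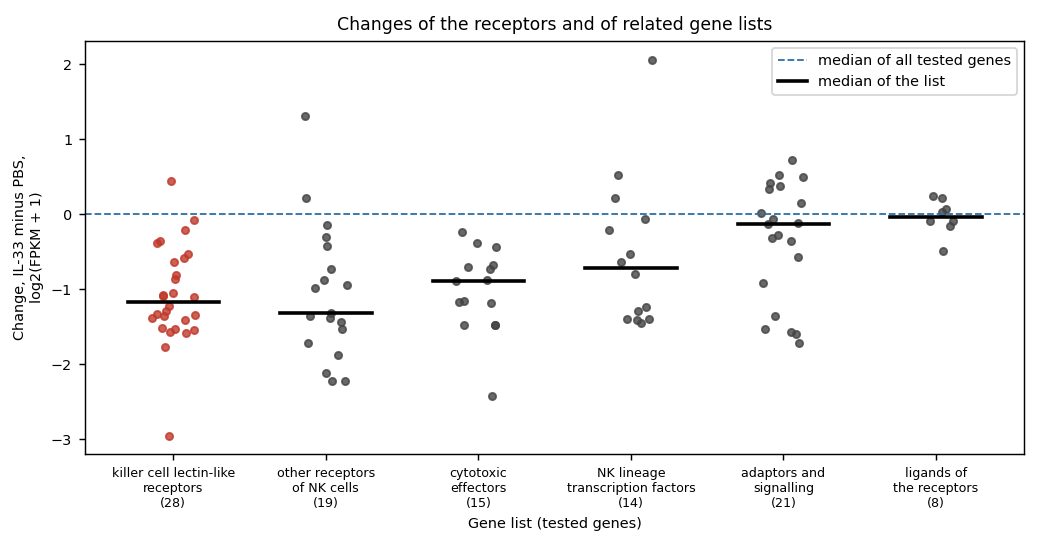
Difference in log2(FPKM + 1) between IL-33 and PBS libraries for every tested gene in the receptor family and in 5 related lists, with the number of genes under each name and a bar at each median. The medians are -1.16 for the receptors, -1.31 for other NK cell receptors and -0.03 for the ligands, and the dashed line marks 0.01 for all tested genes.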

How the data were processed

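RNA sequencing covered 3 libraries of IL-33-treated and 3 of PBS-treated CD11c+ splenic dendritic cells. The authors deposited 1 table of FPKM per library, made per the submitters' processing notes with TopHat2 2.0.13, Bowtie2 2.2.3, SAMtools 0.1.19 and Cuffnorm 2.2.1 on mm10. Which annotation, strand setting and scaling were used is not given in the sources used here. An exact 0 may be a failed estimate.

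Values were analysed as log2(FPKM + 1), which understates the change of low genes. The 11518 genes that reached 1 FPKM in 3 or more of the 6 libraries were fitted with limma 3.58.1 (R 4.3.3, mean-variance trend, no block), two-sided, with Benjamini-Hochberg adjustment over all of them and a threshold of 0.05. The fit was tested on simulated data. Ratios got exact permutation tests (scipy 1.17.1). Positions and transcripts came from GENCODE M21, and promoters from RefSeq GRCm38.p6 for 23 of the 36 receptors.

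The members and lists were chosen with earlier results of these data known. All receptors were accounted for. Of each list at most the 3 tested genes with the smallest adjusted p were named, beside some named in any case (Tyrobp, Hcst, Clec2d, H2-T23, Ncr1, Eomes and Gzma). Itgax, Siglech, Arg1, Il5, Ulbp1, Foxp3, Ikzf2, Fcgr3 and the NK marker Ccl5 were named after their values were seen. Alternatives were other pseudocounts, filters, scalings and variance settings, library weights, the replicate number as a block, a 2-fold minimum and leaving out each library.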

Additional observations from a re-analysis of the deposited data

How the results depend on the processing

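The count of 23 falls among 28 tested lay at 20 to 23 with 1 library left out, beside 19.2% to 24% of all tested genes. It lay at 19 to 26 under all other alternatives except the 2-fold minimum. The 19 came from the filter of 5 FPKM, where 23 receptors were tested and 25% of all tested genes fell. The 26 came from equal totals, where 50.7% of all tested genes fell. Under the 2-fold minimum no receptor fell or rose, beside 0.0434% and 0.729% of all tested genes. Of the 23 receptors, 19 stayed lower under each of the 19 other alternatives that gave a value. The 1 rise became 2 of 34 tested receptors without a filter, beside 18.5% of all tested genes. It became 0 with equal totals, beside 11.1% of all. With any library left out it was 1, beside 22.8% to 27% of all. The change of Klrg1 turned positive with quantile normalization (0.0077), cyclic loess (0.051) and library weights (0.22), and lay between -0.42 and 0.46 with 1 library left out. The replicate block gave 24 falls and 1 rise, beside 21.3% and 24.4% of all tested genes. Deviations of same-numbered libraries correlated at 0.07, -0.05 and 0.09, so the numbers were not treated as pairs.

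The IL-33 over PBS ratio of the summed Klra level was 0.377, and 0.299 with equal totals. For the other receptors it was 0.518, and 0.411 with equal totals. The left-out range was 0.337 to 0.400 for Klra and 0.492 to 0.544 for the others. The difference of Klrk1 over Klrd1 was -0.05, with a left-out range of -0.12 to 0.025, and that of Klra3 over Klrd1 was 0.11, with a range of -0.087 to 0.24. That of Klrd1 over the NK markers was 0.21 without Ccl5.

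List medians moved with scaling. For equal totals, quantile normalization and cyclic loess they were -0.45, -0.34 and -0.35 for adaptors (left-out range -0.19 to -0.094), -0.32, -0.22 and -0.28 for ligands (left-out range -0.058 to 0.062) and -0.17, -0.11 and -0.13 for other lectins of the complex. Equal totals also gave -1.57 for other NK receptors, -0.92 for transcription factors and -1.22 for cytotoxic effectors. Pseudocounts of 0.1 and 5 gave -1.51 and -0.71 for other NK receptors and -1.15 and -0.37 for transcription factors, and 0.5 gave -0.90 for the second list. A filter of 5 FPKM gave -0.88 for transcription factors, 0.045 for ligands and 0.065 for other lectins, the mean filter 0.065 for other lectins, and no filter 0.059 for ligands. The cause was not tested. The lack of read counts leaves the precision of single values unknown.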

Other observations

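Other C-type lectin genes of the natural killer gene complex, which lie beside the receptors on chromosome 6, moved in both directions. Of 14 listed 8 were tested, of which 4 rose and 2 fell (median log2 change 0.17), where 28% of all tested genes rose and 25.5% fell. Without IL-33 replicate 1 the counts were 2 and 2, beside 22.8% and 19.2% of all tested genes. With equal totals 2 rose and 4 fell, where 11.1% of all tested genes rose and 50.7% fell. Clec7a, the gene of the glucan receptor dectin-1, averaged 279 ± 22.9 FPKM with IL-33 and 78.6 ± 10.6 FPKM with PBS (SD, n = 3 each), with a log2 change of 1.82 (SE 0.11, limma adjusted p = 0.000106). Olr1, which encodes a receptor for oxidised lipoprotein, rose by 0.79 (SE 0.11), having passed the filter only through the IL-33 libraries. Clec9a, the dead-cell receptor gene of type 1 conventional dendritic cells, fell by 0.60 (SE 0.09), to 19.9, 20.7 and 22.9 FPKM with IL-33 against 35.1, 33.2 and 29.2 FPKM with PBS.

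Regulatory T cell markers, unlike the T cell markers as a list, rose in 4 of 6 cases and fell in none. Over all tested genes 28% rose and 25.5% fell. Foxp3 (0.28, SE 0.11) and Ikzf2 (-0.19, SE 0.13) were the 2 that did not pass. With equal totals 3 rose, beside 11.1% of all tested genes. With quantile normalization and with cyclic loess 5 rose, Foxp3 among them, beside 22.1% and 23.7% of all. The summed level of the 6 markers was 52.5, 57.2 and 53.1 FPKM with IL-33 and 34.0, 31.9 and 36.3 FPKM with PBS. Whether the 2 lists differ was not tested beyond these counts.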
